A study of Homo sapiens with 6 samples.

Results

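S100A2, S100A3, S100A4, S100A6, S100A10, S100A11, S100A13, S100A14, S100A16 and S100P, 10 members of the S100 family of calcium-binding proteins, were followed on the arrays of this series. These 10 genes were selected on their values in the same arrays, out of 20 S100 genes and 29245 named genes, so their ratios and levels are a description and carry no test. All 11 probes that the array assigns to them were taken, 2 of them for S100A11 and 1 for each other gene. RNA was measured in established human ovarian cancer cell lines on 6 arrays, each hybridized with the RNA of a modified clone in 1 dye and the RNA of its control clone (Ctrl) in the other. In SKOV3 cells, the clones sh-S1 and sh-S2 were transduced with lentiviral vectors (pLKO.1-puro) carrying shRNAs against Hic-5, and the Ctrl clone with the same vector carrying a scramble sequence, all under puromycin selection. In A2780s cells, the clone pCMV-Hic-5 was transfected with a vector expressing human Hic-5 and selected with neomycin, and its Ctrl clone with the empty pCMV6 vector. Each RNA came from 1 stably selected clone, and the dyes were exchanged between the 2 arrays of every pair, which count as 1 replicate. SKOV3 therefore gave 2 clones set against the same Ctrl RNA, and A2780s gave 1 clone with no replicate.

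S100 proteins are small proteins that carry a pair of EF-hands, helix-loop-helix motifs whose loop coordinates calcium, and most of them work as dimers. Calcium binding opens a hydrophobic face through which they bind annexins, cytoskeletal proteins and other targets inside the cell, and some members are released and bind surface receptors such as RAGE (AGER). Most of the human genes lie in a cluster on the long arm of chromosome 1, and several members are followed in carcinomas, ovarian cancer among them, for their part in motility and invasion.

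Each probe is an oligonucleotide of 60 bases. The sequences below are those of the probes of S100A6, the member with the lowest ratio, and of S100A11, the member with 2 probes, written 5′ to 3′ on the strand of the mRNA. The S100A6 probe (A_23_P201711) lies at chr1:153507255-153507685 on the minus strand in hg19, the build of the array annotation, and its 60 bases span 431 bases of the genome, so that it crosses a splice junction between exons. The S100A11 probes (A_23_P126593, chr1:152005219-152005278, and A_23_P145863, chr1:152005160-152005219, both on the minus strand) meet end to end in the coding part of the transcript and share 1 base of the genome. Capitals in A_23_P126593 mark bases 25 to 60, which encode the calcium-binding loop of an EF-hand.
S100A6 A_23_P201711: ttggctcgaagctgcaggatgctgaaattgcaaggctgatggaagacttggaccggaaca
S100A11 A_23_P126593: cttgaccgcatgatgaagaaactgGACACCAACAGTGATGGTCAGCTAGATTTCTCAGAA
S100A11 A_23_P145863: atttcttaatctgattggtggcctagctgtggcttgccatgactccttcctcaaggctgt
No pair of the 11 probes shared a run of more than 9 bases. Among the S100 genes, S100A10 and S100A11 lie next to each other at the start of the cluster, S100A6 to S100A16 follow as a block, S100A14 and S100A13 come after them, and S100P lies on chromosome 4.

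All probe values below are log2 ratios of clone over Ctrl, so that -1 stands for a level 2-fold lower in the clone. In SKOV3, a probe was called when limma's adjusted p was at most 0.05 and the mean of the clones was at least 2-fold away from the Ctrl. TGFB1I1, the gene of Hic-5, was read by 1 probe. It was higher in pCMV-Hic-5, with 4.05 and 2.60. It was not lower in the labelled sh-S1 and sh-S2 RNAs, with ratios between -0.16 and 0.28 on the 4 arrays. The directions given for sh-S1 and sh-S2 therefore rest on their labels. In SKOV3 this probe was dim, with a mean log2 intensity of 7.75. Both dyes of every SKOV3 array still read it well above background. The offset used in background correction pulls ratios of dim spots towards 0. The effect of the offset on the TGFB1I1 ratios was not tested. The paper reports that reduced Hic-5 expression in its knockdown clones was checked by RT-PCR and Western blot. The SKOV3 arrays were dim in Cy5, with a median signal over local background of 9.52 to 25.5 against 373 to 530.5 in Cy3, while the A2780s arrays lay between 325 and 568 in both dyes. Of 8 epithelial and ovarian markers, 6 were well above background in the SKOV3 Ctrl on every array, 4 of the 7 tested fell in the labelled sh-S1 and sh-S2 RNAs (KRT8 at -2.14, KRT18 at -3.53, KRT19 at -2.55 and PAX8 at -3.58, limma's adjusted p between 4.63e-06 and 4.68e-05), and EPCAM was not well above background on all arrays. Over all probes tested in SKOV3, 4.21% were called lower. On every array of the SKOV3 Ctrl, 3 of 4 leukocyte, 2 of 5 fibroblast and 0 of 3 endothelial markers were well above background. Of the leukocyte and fibroblast markers tested, 0 of 3 and 0 of 3 were called by limma, with 1 and 0 at an unadjusted p under 0.05. The part of the epithelial markers in the S100 values was not tested.

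In the labelled sh-S1 and sh-S2 RNAs, 7 of the 10 S100 genes were at least 2-fold below the Ctrl and 0 were above it, and all 11 probes entered the comparison. The lowest ratios were those of S100A6 and S100A2, followed by S100A10, S100A4, S100A16, S100A11 and S100A3, while S100A14, S100A13 and S100P had means within 1.19-fold of the Ctrl. The median log2 ratio of the 10 genes was -2.42, against 0.00 over the 25101 probes tested. By the same rule 4.21% of these probes were called lower and 3.01% higher. Because the members were chosen by these ratios, nothing is read from their count.

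Among the members that bind annexins, S100A6 (calcyclin) had log2 ratios of -4.29 and -7.00 in sh-S1, the array with the clone in Cy5 given first here and below. In sh-S2 the ratios were -4.53 and -6.91, and the mean was -5.68 ± 0.05 (SD, n = 2 clones), a level 51.3-fold lower. All 4 arrays were far below the Ctrl, and the dye orientation moved the ratio more than the clone did. The signals themselves show the same separation, since the Ctrl gave 268398 and 228471 above local background in Cy3 and 70077 and 86437 in Cy5, while the clones gave 534 and 610.0 in Cy5 and 5414 and 7352 in Cy3. S100A10, or p11, the calcium-insensitive member that joins a pair of annexin A2 molecules into a tetramer, had ratios of -3.71 and -4.46 in sh-S1 and -3.97 and -4.23 in sh-S2. Its mean of -4.09 ± 0.01 (SD, n = 2 clones) is 17.1-fold below the Ctrl. S100A11, which binds annexin A1, was measured by the adjoining probes printed above. The probe A_23_P145863 gave -1.45 and -2.69 in sh-S1 and -1.46 and -2.31 in sh-S2, a mean of -1.98 ± 0.13 (SD, n = 2 clones). The probe A_23_P126593, over the EF-hand loop, gave -1.88 and -3.04 in sh-S1 and -2.09 and -2.96 in sh-S2, a mean of -2.49 ± 0.04 (SD, n = 2 clones). Both probes were lower on all 4 arrays, with the same order of dye orientations.

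S100A4 (metastasin), which binds the heavy chain of non-muscle myosin, had ratios of -2.29 and -2.94 in sh-S1 and -2.83 and -3.48 in sh-S2. The mean was -2.88 ± 0.38 (SD, n = 2 clones), 7.38-fold lower, and sh-S2 was lower than sh-S1 in both dye orientations. S100A2, a member found in epithelial cells, had ratios of -4.16 and -6.33 in sh-S1 and -4.75 and -7.02 in sh-S2, with a mean of -5.57 ± 0.45 (SD, n = 2 clones), 47.4-fold lower. As for S100A6, the orientation with the clone in Cy3 gave ratios more than 2 log2 units further from 0 than the reverse. S100A16, a widely expressed member, was at -2.61 and -2.96 in sh-S1 and at -2.68 and -3.21 in sh-S2, a mean of -2.86 ± 0.12 (SD, n = 2 clones) or 7.28-fold. S100A3, a cysteine-rich member best known from hair, was the least reduced of the 7 genes, with -0.98 and -1.59 in sh-S1 and -1.41 and -2.23 in sh-S2. Its mean was -1.55 ± 0.38 (SD, n = 2 clones), 2.93-fold below the Ctrl, and it was the member nearest to the 2-fold threshold among those past it, while S100A14 at 1.19-fold was the nearest among the others.

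The 3 remaining members lay near the Ctrl. S100A13, which takes part in the export of FGF1 and interleukin-1α from cells without a signal peptide, had ratios of 0.09 and 0.19 in sh-S1 and -0.28 and -0.12 in sh-S2, and a mean of -0.03 ± 0.24 (SD, n = 2 clones). The clones lay on opposite sides of the Ctrl on both of their arrays, a difference of -0.34 (sh-S2 minus sh-S1) that was not tested. S100A14, an epithelial member with an altered EF-hand, was at -0.05 and -0.22 in sh-S1 and at -0.08 and -0.65 in sh-S2. S100P, which binds ezrin and the receptor RAGE, was at -0.18 and 0.08 in sh-S1 and at -0.26 and 0.16 in sh-S2, so that its sign followed the dye and not the clone. The Ctrl signals of S100A14 and S100P were well above background on 4 of 4 arrays, those of the clones on 3 of 4.

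**Figure D1:**
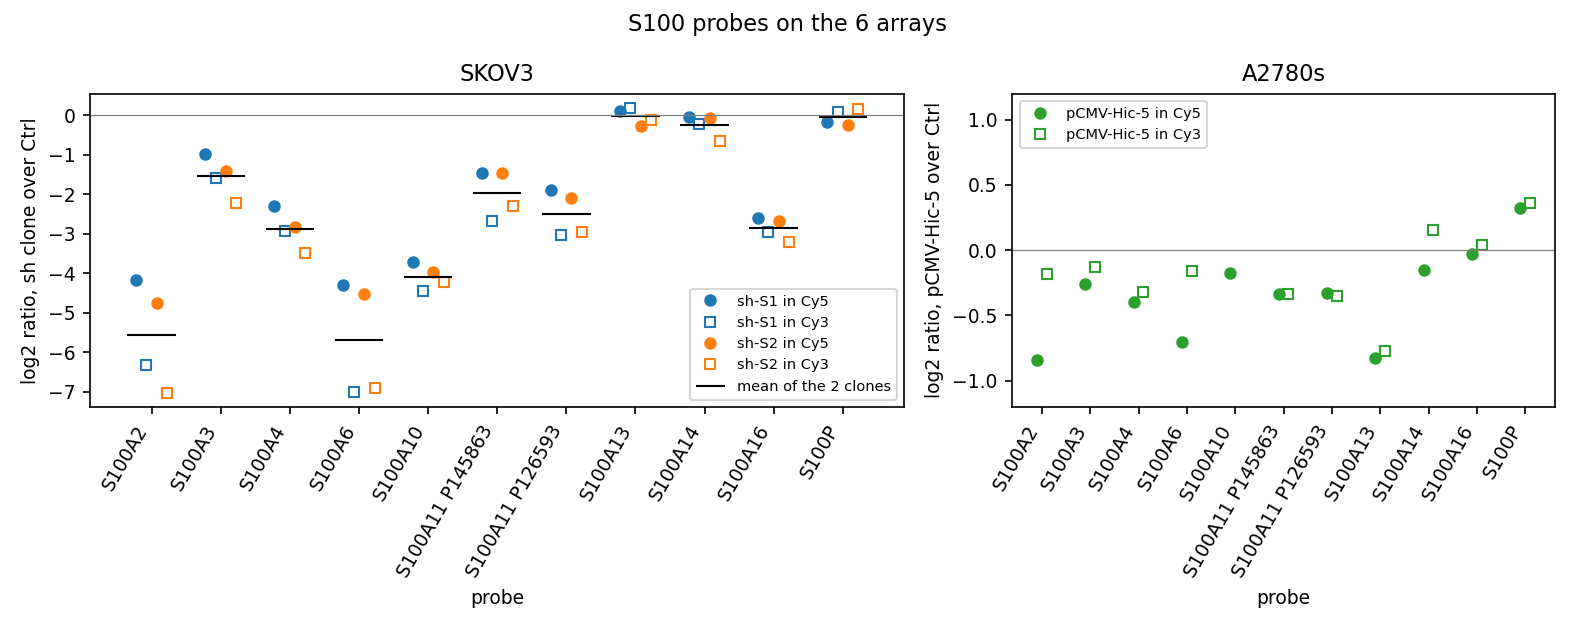
Log2 ratio of clone over Ctrl for the 11 S100 probes, with SKOV3 on the left axis and A2780s on the right axis, which has its own scale; circles are arrays with the clone in Cy5, squares arrays with the clone in Cy3, and lines the mean of the 2 SKOV3 clones. The 7 reduced genes lie below -0.97 on every SKOV3 array they were measured on, while in A2780s S100A13 is the lowest by mean, at -0.80.

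In both dye orientations, 6 of the 10 genes were lower in sh-S2 than in sh-S1 (S100A2, S100A3, S100A4, S100A13, S100A14 and S100A16), against 31.0% of all probes tested. With each array centred on its median in place of loess, the count was 3. The differences of S100A2, S100A3 and S100A4 were -0.64, -0.54 and -0.54 as means of both orientations, and those of S100A6 and S100A10 were -0.08 and -0.01. Each clone is 1 RNA, so these differences have no test.

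In A2780s cells the same genes moved little. A probe was called there when the mean ratio reached 1.5-fold in the same direction on both arrays, which 1.32% of 30526 probes did in the lower and 3.26% in the higher direction. S100A13 was the 1 member called, lower in pCMV-Hic-5 at -0.82 and -0.77, a mean of -0.80 or 1.74-fold. S100A2 was at -0.84 and -0.18 and S100A6 at -0.70 and -0.16, lower on both arrays with means of 1.43-fold and 1.35-fold, short of the rule. With the clone in Cy5 alone, both would have been called, for 3 members in place of 1. Over all probes, 1516 were called lower on that array alone, in place of 403. S100A4 was at -0.39 and -0.32, S100A3 at -0.26 and -0.13, and the S100A11 probes lay between -0.35 and -0.33 on both arrays. S100A16 and S100A14 had opposite signs on the arrays, at -0.03 and 0.04 and at -0.15 and 0.15. S100P was the 1 member higher on both arrays, at 0.33 and 0.36, short of 1.5-fold. S100A10 has 1 usable array, at -0.18, because its spot on the other lay in a blemish with a local background of 65173 in Cy5. The median of the 9 members measured on both arrays was -0.34, against -0.01 over all probes tested. In A2780s the ratios stand for 1 pair of RNAs and have no replicate check.

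The channels of the arrays were also read as separate log2 levels, to place the members in the 5 RNAs. Loess was followed by a step (Aquantile) that gives the mean intensities of the dyes the same distribution on every array. This step is called the scaling below, and its shifts differ with intensity. A level can be set against that of the same probe in another RNA, not against another gene. S100A6 had the widest span, with a level of 17.8 in the SKOV3 Ctrl (16.9 to 18.6 on 4 arrays), 12.1 in sh-S1 (11.6 to 12.6), 12.04 in sh-S2 (11.7 to 12.4), 8.19 in the A2780s Ctrl (8.00 to 8.38) and 7.76 in pCMV-Hic-5 (7.68 to 7.84). The sh clones overlapped each other, and every other step in this order was wider than the spread between arrays. S100A2 had the same order, from 16.9 in the SKOV3 Ctrl through 11.6 in sh-S1, 11.2 in sh-S2 and 9.94 in the A2780s Ctrl to 9.43 in pCMV-Hic-5, with an overlap between sh-S1 and sh-S2. S100A16 stood at 14.1, 11.2, 11.2, 8.69 and 8.70 in these RNAs, with the sh clones overlapping and the A2780s RNAs overlapping. S100A10 stood at 13.8, 9.81, 9.68, 9.27 and 9.10, where the last 2 values come from 1 array. S100A3 stood at 10.9, 9.49, 9.22, 8.37 and 8.18, and S100A11 by its brighter probe, A_23_P145863, at 12.5, 10.47, 10.54, 9.12 and 8.78.

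S100A4 had another order, with 15.9 in the SKOV3 Ctrl, 14.1 in the A2780s Ctrl, 13.7 in pCMV-Hic-5, 13.4 in sh-S1 and 12.7 in sh-S2, and no overlap between neighbours. The sh clones thus lay below the A2780s RNAs for S100A4, and not for the other reduced genes. Without the scaling they lay below the A2780s RNAs for S100A2, S100A3, S100A10 and S100A11 as well. S100A13 lay between 14.7 and 15.5 in all 5 RNAs, highest in the A2780s Ctrl and lowest in pCMV-Hic-5, the latter overlapping sh-S2. Without the scaling between arrays it spread from 13.98 in sh-S2 to 17.3 in the A2780s Ctrl, with 14.1 in the SKOV3 Ctrl and 16.5 in pCMV-Hic-5, so that its order across the lines depended on the scaling. S100A14 stood at 8.41, 8.25, 8.06, 7.21 and 7.21 in the order given for S100A6, and S100P between 7.82 and 8.29, highest in pCMV-Hic-5 with the other RNAs overlapping, and from 7.38 to 9.19 without the scaling. In the Ctrl RNAs, 7 of the 10 genes (S100A2, S100A3, S100A4, S100A6, S100A11, S100A14 and S100A16) were at least 2-fold higher in SKOV3 than in A2780s with no overlap between arrays, against 8.78% of all probes. S100A10 could not be counted, because it had 1 usable A2780s array. It stood at 13.8 in the SKOV3 Ctrl and at 9.27 in the A2780s Ctrl. Without the scaling between arrays the count was 4, for which the share over all probes is not given. S100A4 then turned to the opposite direction, at 14.99 in SKOV3 and 15.99 in A2780s. For 7 genes both sh clones lay between the SKOV3 Ctrl and the A2780s Ctrl, and without the scaling this held for S100A6, S100A14 and S100A16. The members were chosen by their ratios to the Ctrl, and the share over all probes is not given. Nothing is therefore read from this count. The lines were measured on separate slides and scans, so line and slide cannot be told apart.

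**Figure D2:**
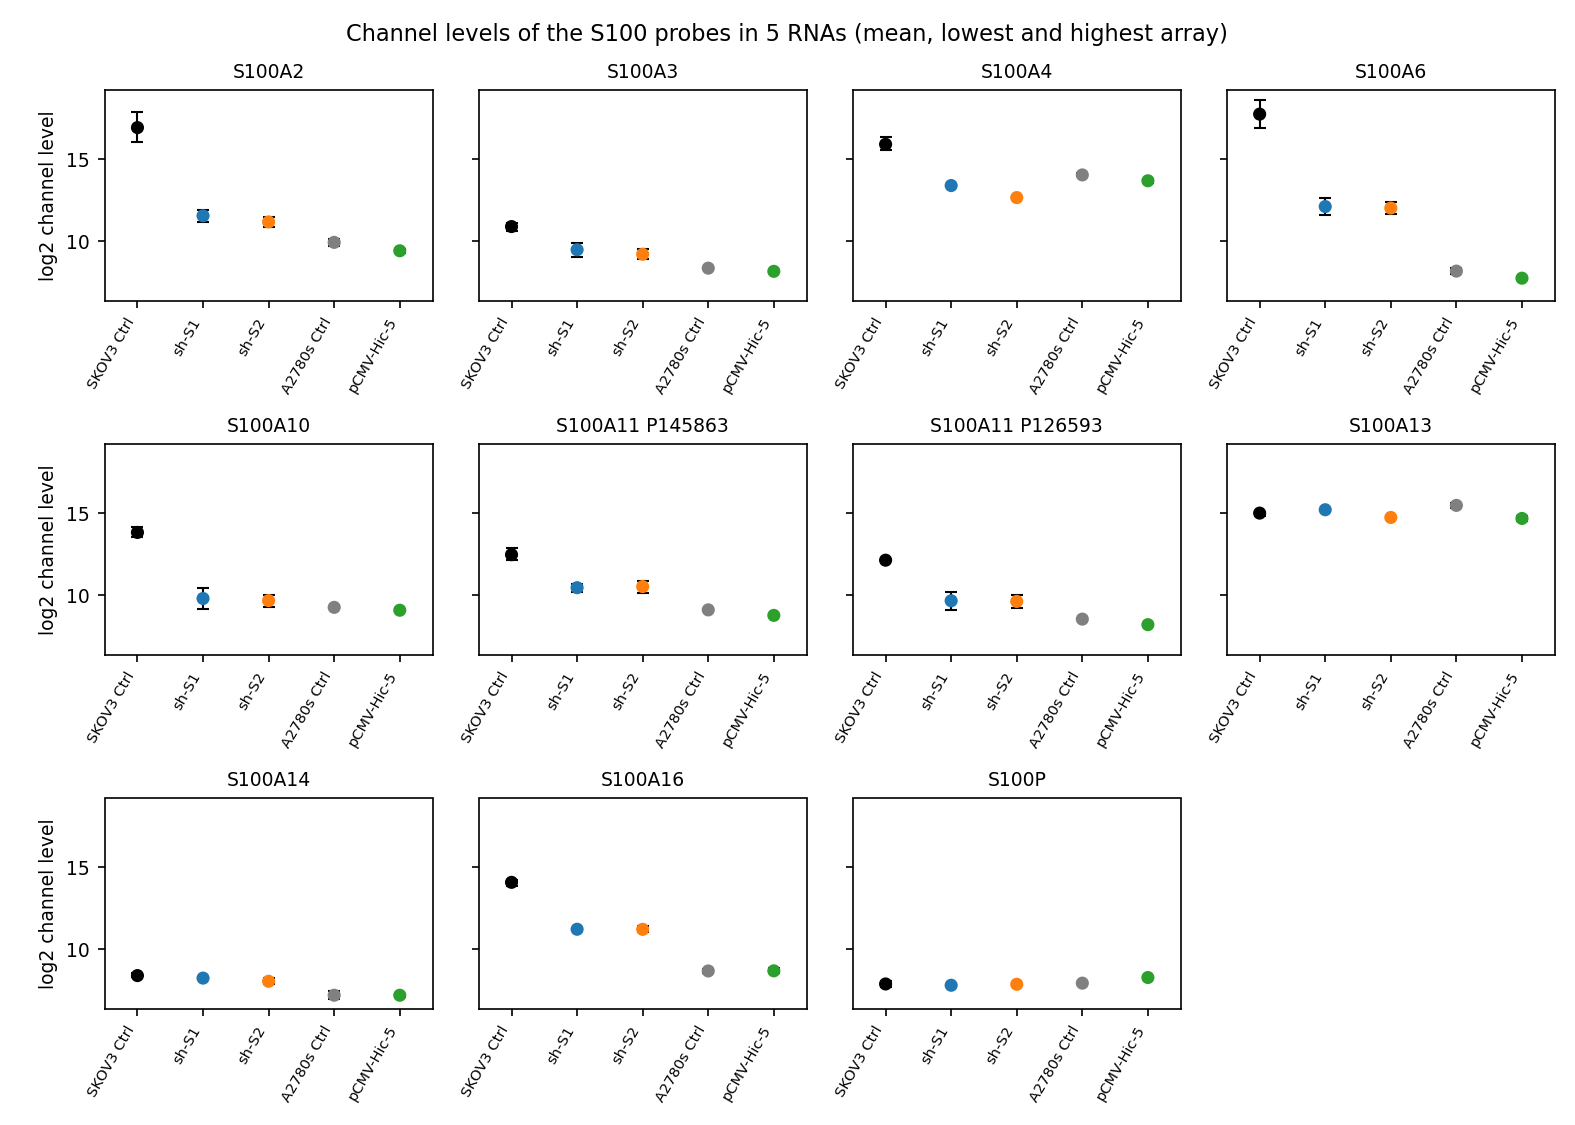
Log2 channel level of each S100 probe (vertical axis, the same in all panels) in the SKOV3 Ctrl, sh-S1, sh-S2, the A2780s Ctrl and pCMV-Hic-5; points are means over arrays and bars reach from the lowest to the highest array. S100A6 goes from 17.8 in the SKOV3 Ctrl to 7.76 in pCMV-Hic-5, while S100A13 lies between 14.7 and 15.5 with this scaling and between 13.98 and 17.3 without it.

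The 10 other S100 genes on the array were dim or little changed. S100A8, S100A9, S100G and S100Z were not well above background in enough channels to be tested in SKOV3. Of the 6 tested, S100A1 was at 0.33, S100B at 0.13, S100A12 at 0.08, S100A7 at -0.15, S100A7A at -0.17 and S100A5 at -0.23. None was called by limma, with adjusted p between 0.0894 and 0.581, and 1 had an unadjusted p under 0.05. In A2780s none of the 6 tested was past the fold rule, with ratios between -0.23 and 0.14.

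Placed along chromosome 1, in the order of the RefSeq annotation of GRCh38.p14, the reduced members formed stretches. S100A10 and S100A11 are followed, with other genes between, by S100A9, S100A12, S100A8, S100A7A and S100A7, which were dim or near the Ctrl. S100A6, S100A4, S100A3, S100A2 and S100A16 come next with S100A5 among them, the latter at -0.23. Beyond S100A16 the ratios returned to -0.25 in S100A14, -0.03 in S100A13 and 0.33 in S100A1. Of 23 genes on either side of the cluster, 21 were tested in SKOV3 and 0 were called by limma with the 2-fold rule. Over all probes 4.21% were called lower and 3.01% higher. Their ratios lay between -0.56 in TPM3 and 0.64 in SNX27, with a median of 0.04, and 10 had an unadjusted p under 0.05, 6 of them higher and 4 lower. The adjusted p was passed by 9 of the 21, all short of 2-fold. The shares of all probes past these p limits without the fold are not given, so these counts have no comparison. THEM4, next to S100A10, was at -0.35, and CHTOP, next to S100A1, was at 0.18. In A2780s, 2 of the 22 neighbours tested were past the fold rule, CREB3L4 at 0.78 and JTB at 0.73, both higher. Over all probes tested there, 3.26% were called higher.

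**Figure D3:**
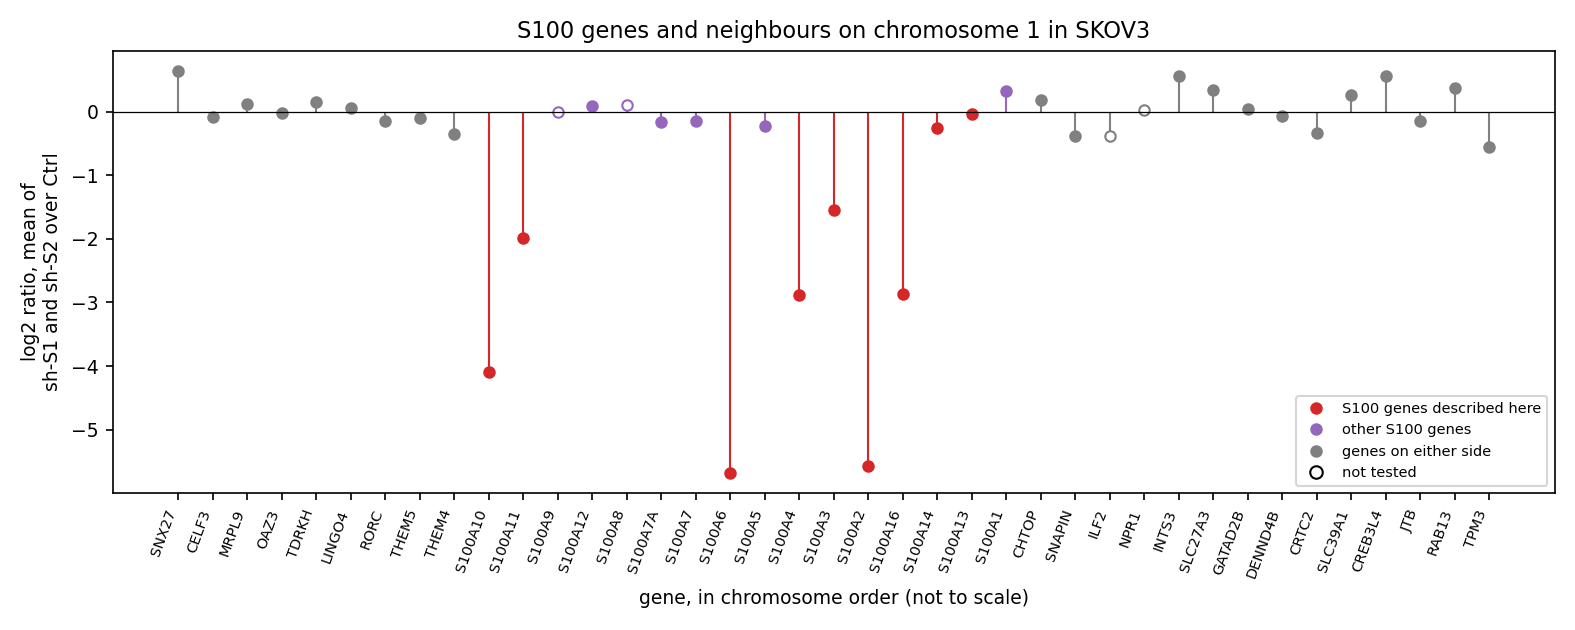
Mean log2 ratio of sh-S1 and sh-S2 over Ctrl (vertical axis) for S100 genes and neighbouring genes in their order on chromosome 1 (horizontal axis, equal steps, not to scale), with open points for genes not tested. The S100 genes described here reach down to -5.68, and the neighbours tested stay between -0.56 and 0.64.

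The sequence before the start of each gene is shown for members that differ in their ratios: S100A6, S100A2 and S100A3, which were lower in the sh clones, and S100A13, which was not. RefSeq promoters of GRCh38.p14 matched all 10 genes, with 14 start sites in all, and the 250 bases upstream of the outermost start are printed for these 4 genes, at chr1:153535992-153536241 (S100A6), chr1:153565845-153566094 (S100A2), chr1:153549259-153549508 (S100A3) and chr1:153634362-153634611 (S100A13), all on the minus strand. Capitals mark matches, on either strand, to the letters TGANTCA (the AP-1 site), GGGCGG (the GC box), TATAAA (the TATA box) and CAGGTG (an E-box).
S100A6: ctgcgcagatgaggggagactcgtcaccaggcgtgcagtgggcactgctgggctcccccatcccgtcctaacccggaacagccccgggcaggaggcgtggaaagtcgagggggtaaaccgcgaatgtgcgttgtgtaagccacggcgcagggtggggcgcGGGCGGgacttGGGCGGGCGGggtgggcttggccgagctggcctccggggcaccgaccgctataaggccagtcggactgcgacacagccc
S100A2: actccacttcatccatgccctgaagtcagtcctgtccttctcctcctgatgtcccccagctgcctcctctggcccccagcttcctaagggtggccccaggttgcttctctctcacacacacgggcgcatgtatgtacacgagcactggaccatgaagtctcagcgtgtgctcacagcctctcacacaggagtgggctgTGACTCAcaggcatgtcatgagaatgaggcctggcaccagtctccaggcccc
S100A3: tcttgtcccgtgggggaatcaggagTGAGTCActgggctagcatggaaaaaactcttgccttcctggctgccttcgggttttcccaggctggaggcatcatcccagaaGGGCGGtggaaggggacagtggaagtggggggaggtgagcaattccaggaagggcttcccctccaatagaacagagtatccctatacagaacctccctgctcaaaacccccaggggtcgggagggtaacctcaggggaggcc
S100A13: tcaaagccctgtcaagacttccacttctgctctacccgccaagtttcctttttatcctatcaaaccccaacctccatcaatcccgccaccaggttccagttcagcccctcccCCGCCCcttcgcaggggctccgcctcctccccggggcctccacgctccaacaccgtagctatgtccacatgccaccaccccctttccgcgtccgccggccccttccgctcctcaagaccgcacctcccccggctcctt
S100A6 holds 3 GC boxes between 90 and 70 bases before its start, of which the pair nearest to the start overlap each other. S100A2 holds 1 AP-1 match, 52 to 46 bases before its start, and S100A3 holds 1 at 225 to 219 bases together with 1 GC box. S100A13 holds 1 GC box on the other strand. Among the 14 start sites of the members, 2 held an AP-1 match, 6 a GC box, 3 a TATA box and 5 an E-box, while among all 35116 promoters of the same length 2308 (6.57%), 14973 (42.6%), 3763 and 6143 (17.5%) did. The windows of S100A6 and S100A10 held 24 CpG dinucleotides each, those of S100A2 and S100A3 held 4 each and that of S100A13 held 15, against a median of 11 over all promoters, so that genes with low ratios had windows both rich and poor in CpG.

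Genes for proteins that bind S100 proteins were then taken from a list of 22 partners and receptors, of which 20 were tested in SKOV3. The list was written with earlier results of these data known, so its counts and p-values are a description and no test of the list. By the brightest probe of each gene, 6 fell and 0 rose by limma's adjusted p and the 2-fold rule. Over all probes 4.21% were called lower and 3.01% higher. The list median was -0.22, against 0.00 over all probes. Another 4 of the 20 passed the adjusted p short of 2-fold. ANXA1, the partner of S100A11, was at -4.38 and -5.65 in sh-S1 and at -4.47 and -5.54 in sh-S2, and fell by 5.01 on the log2 scale (SD 0.01, n = 2 clones; limma's adjusted p = 4.17e-06). EZR, or ezrin, a linker of membrane and actin that S100P binds, fell by 3.20 (limma's adjusted p = 6.88e-06), and its other probe was at -2.21. ANXA2, the partner of S100A10, fell by 2.33 (limma's adjusted p = 1.58e-05), while another probe was at -0.54, short of 2-fold. AHNAK, a large scaffold protein that binds the complex of annexin A2 and S100A10, was at -1.51 in sh-S1 and -2.69 in sh-S2 and fell by 2.10 (limma's adjusted p = 0.00131) by its brightest probe, while its 4 other probes lay between -0.47 and 0.09. MYH9, the non-muscle myosin heavy chain that S100A4 binds, fell by 1.72 (limma's adjusted p = 0.000131), with another probe at -0.42. IQGAP1, a scaffold protein bound by S100P, fell by 1.08 (limma's adjusted p = 0.000392). AHNAK without sh-S2, at -1.51, and IQGAP1 without either clone, at -1.01 and -1.15, no longer passed limma's adjusted p.

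The partners of S100A6 that take part in protein turnover and chaperone work were at 0.68 for CACYBP (limma's adjusted p = 0.00239), short of 2-fold, 0.07 for SUGT1 and -0.34 for STUB1. ANXA6, another annexin, was at 0.99, short of the rule but past it on Feature Extraction's processed signals, at 1.67. ANXA11, a further annexin of the list, was at -0.19, with its other tested probe at -0.47. The genes of the S100A13 export complex were at -0.32 for FGF1 and 0.01 for SYT1, and IL1A was too dim to be tested. Other probes of FGF1, at -0.45 and -0.59, passed limma's adjusted p (0.0117 and 0.00808) short of 2-fold. The receptor gene AGER was at 0.11. In A2780s, ANXA1 and AHNAK were the 2 of 20 genes past the fold rule, both lower in pCMV-Hic-5 at -0.82 and -0.79. Over all probes tested there, 1.32% were called lower.

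A list of 34 other genes for EF-hand and related calcium-binding proteins served to set the S100 genes beside their wider class. It too was written with earlier results known, so its counts and p-values are a description. Of the 31 tested in SKOV3, 5 fell and 2 rose by the same rule, against 4.21% and 3.01% of all probes, with a median of 0.00. The adjusted p was passed by 17, with or without the fold. Its share over all probes is not given, so this count, like those of the partners and neighbours, has no comparison. The genes that fell were CALB1, or calbindin, at -2.13, PLS3, an actin-bundling plastin, at -1.69, CAPN2, the large subunit of m-calpain, at -1.65, CIB1, which binds integrins, at -1.25 and EFHD2 at -1.03, with limma's adjusted p between 2.1e-05 and 0.00118. The other probes of CIB1 and EFHD2 were at -0.81 and -0.79, short of 2-fold. MYL9, a regulatory light chain of myosin, rose by 1.92 and SPARC, a secreted matrix protein, rose by 1.78. With 1 clone left out, SPARC (1.62 and 1.93), PLS3 (-1.55 without sh-S2) and CIB1 (-1.11 without sh-S2) stayed past 2-fold but no longer passed the adjusted p. EFHD2 lost its call without sh-S1, at -1.22, and without sh-S2, at -0.84, and also on the processed signals, at -0.92. ACTN4 was at -0.999, just short of the fold threshold, and CALM3 was at 0.35. CALM2 had usable spots in only 1 of the dye orientations and was not tested. In A2780s, CALM2 at -0.64 and NCS1 at -0.80 were lower past the fold rule, and NUCB1 at 0.63 and NUCB2 at 0.61 were higher, 4 of 33 genes. Over all probes tested there, 1.32% were called lower and 3.26% higher.

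**Figure D4:**
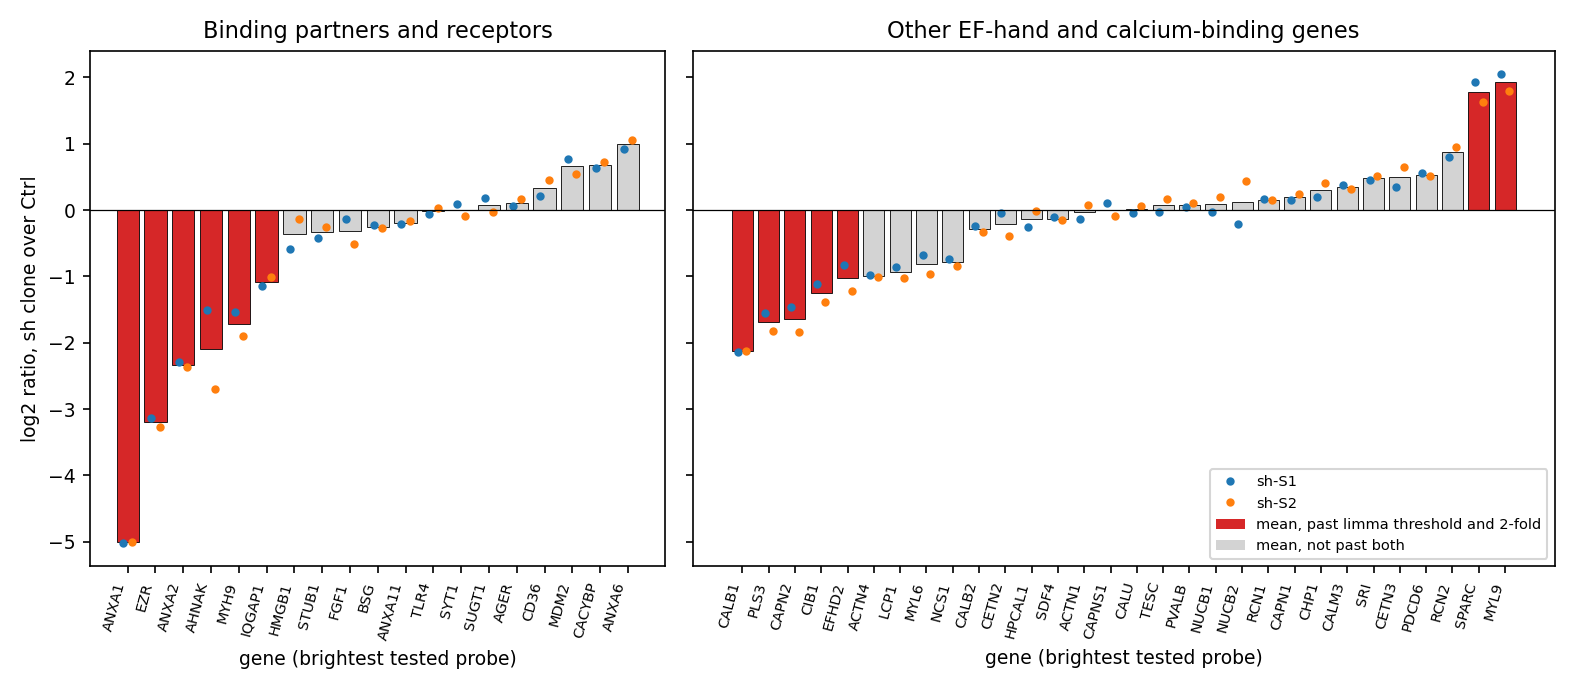
Log2 ratio over Ctrl in SKOV3 (vertical axis) for tested genes of the partner list (left, 19 of 20 genes) and of the other EF-hand genes (right, 30 of 31 genes); bars are the mean of the 2 clones, red where limma's adjusted p and the 2-fold rule were passed, and points are the means of sh-S1 and sh-S2. In the partner list 6 genes fell, down to -5.01 in ANXA1, and in the EF-hand list 5 fell and 2 rose.

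The genes outside the S100 family whose ratios were closest to those of S100A6 over the 6 arrays, by root mean square distance, were GPX1 (0.52), CXCL1 (0.57), TGFBI (0.73), ANXA1 (0.83) and SPANXA1 (0.94). GPX1 encodes a glutathione peroxidase, CXCL1 a chemokine and TGFBI a matrix protein. Their means were -5.31, -6.07, -5.01, -5.01 and -4.56 in SKOV3 and 0.07, -0.59, 0.11, -0.82 and -0.47 in A2780s, where S100A6 was at -0.43. These genes were picked for their likeness, so the values are a description of 6 arrays.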

How the data were processed

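RNA of 5 clones of established ovarian cancer lines was compared on 6 two-colour Agilent arrays of 41000 probes. The authors deposited the mean spot intensity and local background of both dyes from Agilent Feature Extraction (version 8.5.1.1 in the submitters' notes), not normalized, and the software's processed intensity, corrected for background and dye. Log10 ratios, Cy5 over Cy3, were deposited as well, not turned on dye-swapped arrays. With limma 3.58.1 in R 4.3.3, normexp background correction used an offset of 50, which pulls ratios of dim spots towards 0, and ratios were normalized by loess, turned to clone over Ctrl, and set to log2. Control spots, spots flagged as outliers (121 to 362 per array) and 40 spots of 1 A2780s array with a local background over 1000 were left out. The normexp parameters were fitted without background-flagged spots, a choice made after the data were seen.

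A probe entered if its Ctrl signal was well above background on every array of the line, or its signal in a clone on both arrays of that clone. In SKOV3, each clone was averaged over its dye-swapped arrays and tested against 0 with lmFit and eBayes over 25101 probes, with Benjamini-Hochberg adjustment; the Ctrl is 1 RNA, so its own spread is left out, and with clones as the replicates the p-values cover the spread between these 2 RNAs only. Calls need an adjusted p of at most 0.05 and 2-fold in SKOV3, and 1.5-fold in the same direction on both arrays in A2780s. The rules were tested on simulated data. Array names come from the files, and 28078 probes were named through their accession in the RefSeq annotation. A gene with several probes is given by its brightest tested probe. The members and gene lists were chosen with earlier results of these data known. Named genes are all members, the other S100 genes, the called genes of each list, and the 5 genes most like S100A6. Of the uncalled genes of the lists, a selection is named. The authors' lists of changed genes were not used. In each of the partner and EF-hand lists, 1 gene is counted but not reported here. Alternatives were the processed signals, normexp on all spots, median centring, no filter, each dye orientation, each clone left out, the deposited log10 ratios, 1.5-fold on each array, and levels without Aquantile. The number of arrays and the dim Cy5 channel of the SKOV3 arrays limit the precision.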

Additional observations from a re-analysis of the deposited data

Results flagged for a closer look

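S100A13 was at 0.14 in sh-S1 and -0.20 in sh-S2 as means of both dye orientations, so that both arrays of sh-S1 lay above the Ctrl and both arrays of sh-S2 below it. The difference of -0.34 (sh-S2 minus sh-S1) was not tested, since each clone is 1 RNA. Those of S100A2, S100A3 and S100A4 were larger, at -0.64, -0.54 and -0.54. Of all probes tested, 31.0% were lower in sh-S2 than in sh-S1 in both dye orientations. The share of probes with the clones on opposite sides of the Ctrl is not given.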

How the results depend on the processing

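The 8 probes of the 7 S100 genes below the Ctrl in SKOV3 kept their direction and stayed past 2-fold in 72 of 72 recalculations. S100A6 lay between -6.95 (clones in Cy3 only) and -4.41 (clones in Cy5 only) and S100A3 between -1.98 and -1.19. These recalculations are not independent, and the genes were chosen on the same ratios. Leaving out the filter on dim probes cannot change a ratio, for these genes or the others below. The deposited log10 ratios nearly repeat the processed signals, and the dye and clone subsets are parts of the same mean. Without sh-S2, S100A3 (-1.28) and the S100A11 probe A_23_P145863 (-2.07) stayed past 2-fold but no longer passed the adjusted p, which left 6 of the 7 genes called, S100A11 by its other probe. The signs of S100A13, S100P, S100A14, S100A16 and S100A10 near 0 turned under some alternatives, S100A13 and S100P in SKOV3 and the other 3 in A2780s. On the processed signals, 2370 probes were called lower and 1980 higher in SKOV3 and 693 lower in A2780s. Median centring gave 1619 lower in SKOV3, and 3 members lower in sh-S2 than in sh-S1 in both dye orientations, a comparison whose alternatives were chosen after seeing the data. With the clones in Cy5 only, 1516 probes were lower and 1795 higher in A2780s, with 3 members lower. With the clones in Cy3 only, 1223 were higher in SKOV3 and 210 lower in A2780s. Leaving out 1 clone, which leaves the dye-swapped arrays of the other with technical error only, gave 379 (without sh-S2) to 674 (without sh-S1) lower and 275 to 438 higher. At 1.5-fold on each array, 123 were lower and 495 higher in A2780s. Without Aquantile, 3 members in place of 7 had both sh clones between the SKOV3 and A2780s Ctrl, and 4 in place of 7 were higher in the SKOV3 Ctrl. The shares over all probes without Aquantile are not given. The causes were not tested. Called partners ranged from 4 to 6 lower and 0 to 2 higher, EF-hand genes from 2 to 7 lower and 1 to 3 higher, and neighbours from 0 to 1 either way. Of 152 recalculated ratios of 19 named genes outside the family, 0 changed sign, 12 lost and 4 gained a call, CIB1 and EFHD2 among the losses in 1 dye orientation (-0.98 and -0.61) and ANXA6 and CACYBP among the gains (up to 1.67 and 1.05). Each ratio pairs a clone with its Ctrl on the same array, and the labels name the dye-swapped arrays. They number no further replicates to pair, and each clone is 1 replicate. On the SKOV3 arrays the Cy5 channel had 43.7 to 63.6% of its probe spots flagged as above background by the scanner, and the Cy3 channel 88.8 to 94.5%, which limits the ratios of dim genes.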
